A study of Homo sapiens with 12 samples.

Results

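The distal part of the short arm of human chromosome 10 (10p) holds a run of neighbouring genes, from ZMYND11 near the chromosome end to PRTFDC1, that were measured lower in estrogen receptor-transfected endothelial cells than in empty-vector cells. The block has 58 member genes, chosen as neighbours on 10p because their levels, as a block, lay lower in receptor cells in an earlier look at these same arrays. Differences between receptor and control cells are therefore given below as a description of the members, without a test of their own. For a gene with several probes, that with the highest mean level over the 12 arrays was used. Of the 58 members, 49 had a probe detected above background (detection p under 0.05) on at least 3 arrays and entered the comparisons, among 15249 genes tested in all. The other 9 were IL15RA, SFMBT2, KIN, GATA3, CAMK1D, CCDC3, CACNB2, PLXDC2 and SPAG6, each detected on 0 to 2 of 12 arrays.

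The study asked what estrogen receptor alpha does in vascular cells without and with its hormone. It used EA.hy926, an endothelial hybrid line made from human umbilical vein endothelial cells and a carcinoma line, in which the labels report no receptor of its own. Receptor cells were stably transfected with the plasmid pCMV3-ERalpha, and control cells with the empty backbone pCDNA 3.1. Both were selected in puromycin at 5 microgram/ml, grown from single colonies, kept at 2 microgram/ml and then held for 24 h without serum. The 4 groups were receptor cells with ethanol vehicle, control cells with vehicle, receptor cells with 10 nM 17-beta-estradiol for 16 h and control cells with the same estradiol treatment, with 3 arrays each. The design text calls the arrays of a group biological replicates, and the labels do not say whether a replicate number stands for a clone, a pool of colonies or a culture, nor whether numbers 1, 2 and 3 of the receptor cells share a colony. The arrays of 1 receptor number are called a receptor culture here. Each array measured RNA from a whole culture, so fewer expressing cells and less RNA per cell cannot be told apart.

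The genes of distal 10p are not a pathway. They are separate transcription units, some with start sites close enough to share promoter sequence, and encode proteins as different as a Polycomb subunit, an autophagy receptor, a splicing factor and a peroxisomal enzyme. What they share is their place on a chromosome. A change in the copies of a chromosome segment alters the template of all its genes. A hormone receptor acts on genes through DNA elements to which it, or a partner factor, binds. Neither was tested here as a cause of the values below. Expression arrays measure RNA and give no DNA copy number, which was not measured here.

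Between 18441 and 19747 of 47322 probes were detected per array, with a median raw intensity of 105 to 121. The probe for ESR1, the receptor's gene, was detected on 0 of 12 arrays, and the files do not say whether it matches the transfected transcript. Of 13 endothelial marker genes, 11 were detected on at least 3 arrays, PECAM1, CDH5 and VWF on all 12, while CLDN5 and EMCN were detected on 0. Of 8 epithelial markers, which the line's carcinoma parent could express, 7 were detected, CDH1 on 0 arrays. The summed log2 level of those 8 was 56.0 to 57.0 in receptor vehicle and 54.6 to 54.9 in control vehicle arrays, and 57.9 to 59.0 in receptor estradiol against 55.2 to 55.4 in control estradiol arrays. The sum joins markers that moved in opposite directions. Under vehicle, KRT8 had a mean of 10.56 in receptor and 9.68 in control cells, and MUC1 had 6.82 and 7.97. Under estradiol, KRT19 had 6.17 and 4.60, and MUC1 had 6.73 and 7.83. Over the 13 endothelial markers the sums were 101.2 to 108.1 against 106.7 to 107.3 under vehicle and 102.0 to 107.6 against 105.4 to 107.9 under estradiol. Mesenchymal markers were detected for 1 of 6 genes, with COL3A1, PDGFRB and THY1 at 0 arrays, and leukocyte markers for 3 of 5, with PTPRC and CD3E at 0. The part of these marker shifts in the values of the 10p genes was not tested. The receptor cultures also differed from each other more than the control cultures did, and culture 1 stood apart from cultures 2 and 3, so values are given per culture and also without culture 1.

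The promoters of the members, taken from RefSeq (GRCh38.p14, 250 bases before to 50 after each start), were available for 56 of 58 members. These 56 include members that did not pass the detection filter, while the tested genes set beside them all passed it. No member promoter held the full estrogen response element, searched on both strands as GGTCANNNTGACC, which 0.0416% of the 9622 tested genes with a promoter held. Its half-site, AGGTCA, occurred in 11 of 56 members (19.6%) and in 13.9% of tested genes. Here and below a gene was counted if any of its promoters matched, and the 56 members had 101 promoters. Counted per promoter, the half-site was in 10.9% of member promoters and in 13.8% of the promoters of all genes, tested or not. A full element preceded by A contains a half-site, so these searches overlap. The GC box GGGCGG, to which SP-family factors bind, occurred in 42 of 56 members and 75.3% of tested genes, the ETS motif CCGGAAG in 17.9% and 21.6%, and CCAAT in 48.2% and 43.5%. The median GC content of a window was 68.7% for members and 64.3% for tested genes. A match is only a match of letters, and no match says only that these letters are not in the window.

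NUDT5, which hydrolyses ADP-ribose, and CDC123, an assembly factor of the translation factor eIF2, show how closely some members lie: they are transcribed away from each other, their windows share 204 bases on opposite strands, and both were lower in receptor cells. Their windows are at chr10:12195842-12196141 (minus strand) and chr10:12195938-12196237 (plus strand), with ETS motifs and half-sites in capitals, read 5′ to 3′.
NUDT5: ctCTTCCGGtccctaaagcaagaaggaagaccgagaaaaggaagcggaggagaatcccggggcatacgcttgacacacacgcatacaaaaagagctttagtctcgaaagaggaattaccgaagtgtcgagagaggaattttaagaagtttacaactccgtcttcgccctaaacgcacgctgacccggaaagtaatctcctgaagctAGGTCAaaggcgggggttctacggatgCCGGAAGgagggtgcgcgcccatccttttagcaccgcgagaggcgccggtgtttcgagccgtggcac
CDC123: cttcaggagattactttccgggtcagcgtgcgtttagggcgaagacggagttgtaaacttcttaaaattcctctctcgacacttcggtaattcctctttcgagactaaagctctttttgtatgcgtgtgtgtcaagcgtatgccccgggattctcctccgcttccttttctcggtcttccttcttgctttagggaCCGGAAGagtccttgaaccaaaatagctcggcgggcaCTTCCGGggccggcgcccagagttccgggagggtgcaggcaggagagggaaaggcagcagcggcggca

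NMT2 and PRTFDC1 are printed because they departed most from the rest of the block, NMT2 as the highest member in receptor cells and PRTFDC1 as the member on which the receptor cultures differed most. Their windows lie on the minus strand at chr10:15168644-15168943 and chr10:24952557-24952856, with GC boxes in capitals. NMT2 held 12 GC boxes and PRTFDC1 held 2, counted with overlaps and on both strands.
NMT2: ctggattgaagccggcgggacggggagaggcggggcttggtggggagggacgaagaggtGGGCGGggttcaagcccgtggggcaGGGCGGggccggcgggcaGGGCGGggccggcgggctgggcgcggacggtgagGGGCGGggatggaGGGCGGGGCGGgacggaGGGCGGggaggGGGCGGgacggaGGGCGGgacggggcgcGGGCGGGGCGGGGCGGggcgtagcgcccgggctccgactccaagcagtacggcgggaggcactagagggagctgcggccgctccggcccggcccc
PRTFDC1: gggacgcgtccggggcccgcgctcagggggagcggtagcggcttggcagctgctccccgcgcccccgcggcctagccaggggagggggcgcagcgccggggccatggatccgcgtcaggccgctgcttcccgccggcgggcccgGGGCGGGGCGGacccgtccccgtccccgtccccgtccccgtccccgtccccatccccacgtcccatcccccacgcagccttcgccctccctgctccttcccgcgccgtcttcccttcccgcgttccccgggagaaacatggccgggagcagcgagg

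Under vehicle, the members as a set lay lower in receptor cells: 43 of the 49 had a mean below that of control cells, against 52.1% of all genes. The median log2 difference was -0.52, against -0.01 over all genes tested. With limma, 25 of the 49 (51.0%) passed an adjusted p of 0.05 as lower and 0 as higher. Over all 15249 genes 8.54% were called, 4.79% lower and 3.74% higher. All 3 receptor arrays lay below all 3 control arrays for 32 members, which was so for 16.5% of all genes, and above them for 0 members, against 13.5% of all genes. Since the members were picked on this contrast, nothing is read from these shares. The count depended on single arrays: it was 15 without receptor vehicle replicate 2, 16 without control vehicle replicate 1 and 15 without control vehicle replicate 2, while the median stayed between -0.54 and -0.48 whichever array or receptor culture was left out.

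Under estradiol, on separate arrays of the same transfected lines, the median was -0.54, against -0.01 over all genes. Of the members, 45 of 49 lay below control, against 51.7% of all genes. Of the 49, 23 (46.9%) were called lower and 0 higher, where 7.60% of all genes were called, 4.36% lower and 3.24% higher. All receptor arrays lay below all control arrays for 31 members, against 15.1% of all genes, and above for 0, against 12.2%. A total of 21 members were called lower under both treatments, 84.0% of the vehicle calls and 91.3% of the estradiol calls. The matching overlap over all genes was not counted. The vehicle and estradiol differences of a receptor culture correlated across all genes too, as given below. Nothing is therefore read from this overlap or from the shares under estradiol. USP6NL, UPF2, FAM171A1 and RSU1 were called under vehicle alone, OPTN and NEBL under estradiol alone, and whether their differences changed between treatments is covered by the test of the estradiol response below. Without receptor culture 1, 30 members were called lower under vehicle and 31 under estradiol, with medians of -0.53 and -0.55. Calls over all genes moved on leaving out arrays as well. Leaving out an array or a receptor culture gave 479 to 2375 under vehicle (1302 with all arrays) and 578 to 2287 under estradiol (1159). The share of all genes without culture 1 is not given here, so nothing is read from the rise.

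SEC61A2 and DNAJC1 were detected on 0 receptor arrays under vehicle, and DIP2C, SEC61A2 and DNAJC1 were each detected on 0 arrays of a group under estradiol. No fold is given for them in those comparisons. The medians were the same with these genes set to no difference.

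**Figure D1:**
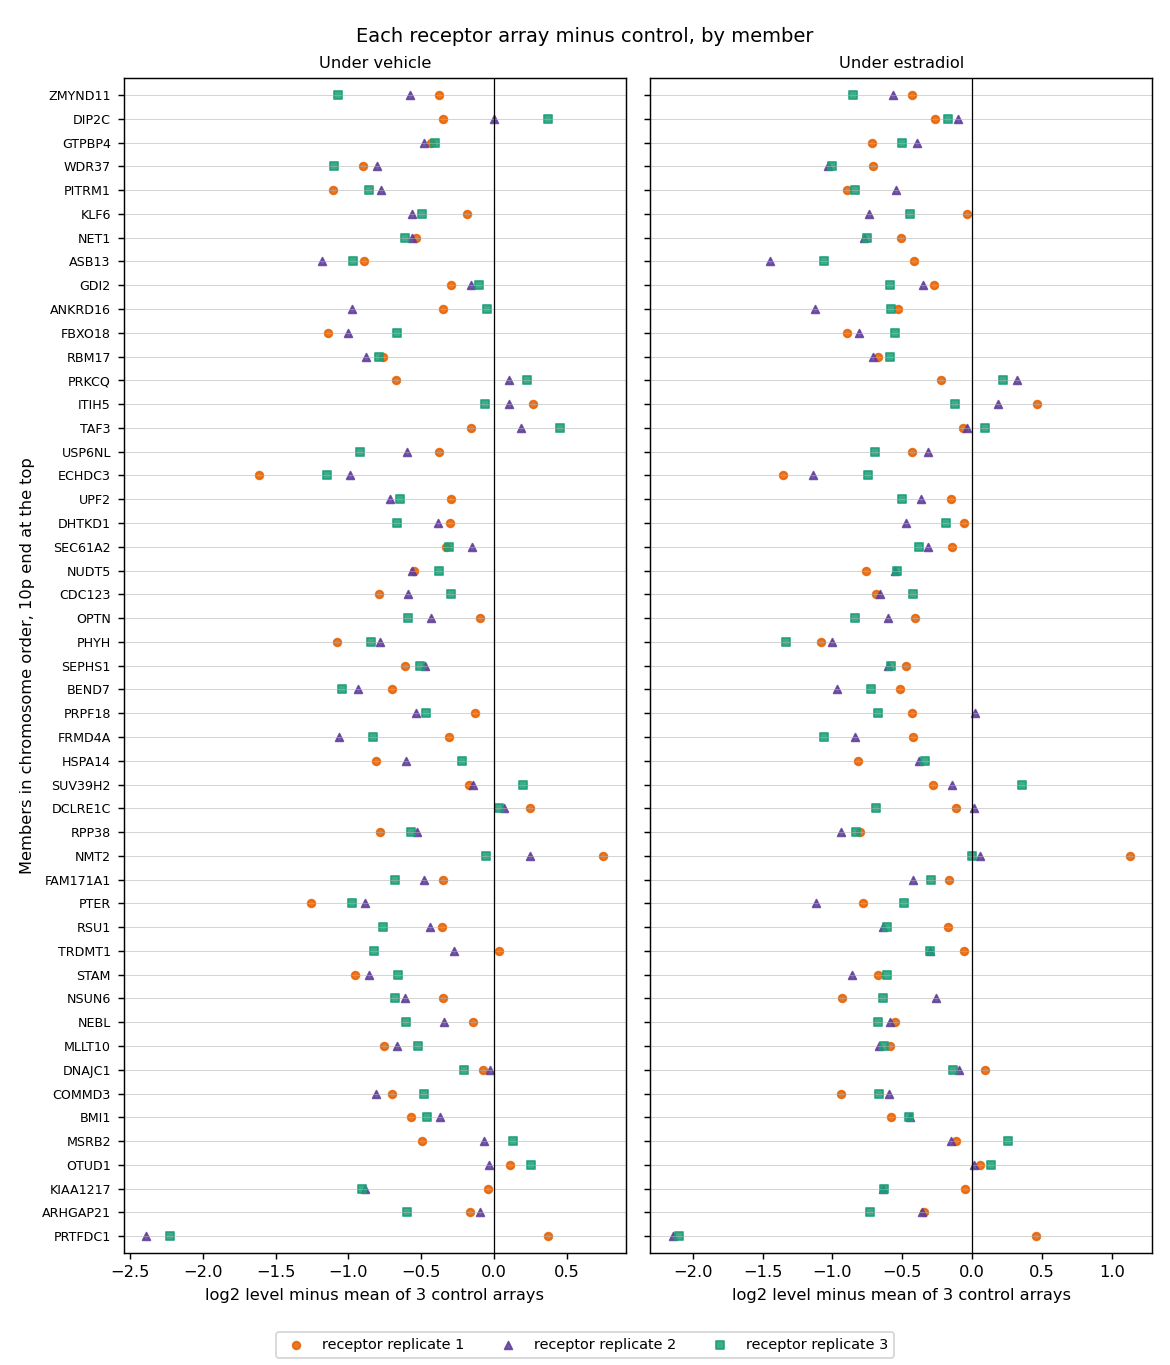
Each receptor array's normalized log2 level minus the mean of the 3 control arrays of the same treatment, for the 49 members that passed the detection filter, in chromosome order with the 10p end at the top; circles, triangles and squares are receptor replicates 1, 2 and 3. Most points lie left of 0 in both panels, PRTFDC1 is far left in replicates 2 and 3 and right of 0 in replicate 1, and NMT2 lies farthest right in replicate 1.

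In the following, levels are normalized log2 levels in the order of replicates 1, 2 and 3, and differences are receptor minus control in log2 with the standard error of the fit (SE, 3 arrays per group). The genes of transcription and chromatin had 6 of 8 members measured, of which 3 were called lower under vehicle and 3 under estradiol. Their median difference was -0.44 under vehicle and -0.45 under estradiol. ZMYND11, a reader of a methylated histone mark that restrains transcription elongation and the first member from the chromosome end, had 9.87, 9.67 and 9.18 in receptor vehicle and 10.39, 10.22 and 10.14 in control vehicle arrays. Under estradiol it had 9.75, 9.61 and 9.33 in receptor cells and 10.32, 10.06 and 10.16 in control cells. The receptor arrays were below the control arrays throughout, by -0.67 ± 0.17 under vehicle and -0.62 ± 0.17 under estradiol. BMI1, a subunit of Polycomb repressive complex 1, had 9.23, 9.42 and 9.33 in receptor vehicle, against 9.81, 9.81 and 9.76 in control vehicle arrays, and 9.18, 9.31 and 9.30 against 9.75, 9.70 and 9.82 under estradiol. It was 1.38-fold and 1.41-fold lower in receptor cells, with no overlap of the groups.

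MLLT10, a cofactor of the histone methyltransferase DOT1L, had 7.30, 7.39 and 7.53 in receptor vehicle and 7.93, 8.16 and 8.08 in control vehicle arrays, a difference of -0.65 ± 0.11. Under estradiol it had 7.42, 7.34 and 7.38 against 8.11, 7.87 and 8.05, a difference of -0.63 ± 0.11, so the groups did not overlap under either treatment. KLF6, a zinc-finger transcription factor of injured vessels and a member that was not called, had 11.28, 10.91 and 10.97 in receptor vehicle and 11.33, 11.47 and 11.59 in control vehicle arrays. With estradiol its receptor arrays had 11.41, 10.71 and 11.01 and its control arrays 11.29, 11.48 and 11.59, and the groups overlapped, with receptor culture 1 at the control level. SUV39H2, a histone H3 lysine methyltransferase, showed no separation: it had 5.04, 5.06 and 5.41 against 5.25, 5.24 and 5.13 under vehicle, and 4.84, 4.98 and 5.48 against 5.13, 5.32 and 4.90 under estradiol. TAF3, a subunit of the general factor TFIID, was among the 4 highest members, at 4.80, 5.14 and 5.41 in receptor vehicle and 4.92, 5.00 and 4.95 in control vehicle arrays. Its arrays overlapped under estradiol too, at 4.85, 4.88 and 5.01 in receptor cells against 5.04, 4.68 and 5.04 in control cells. A second TAF3 probe, detected on 5 of 12 arrays, differed by -0.21 under vehicle and 0.10 under estradiol. GATA3, a lineage factor near background on these arrays, was detected on 0 of 12, with levels from 4.43 to 4.58 in receptor vehicle and 4.51 to 4.64 in control vehicle arrays.

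Genes of RNA processing, RNA modification and translation were measured for 10 of 10 members, with 6 called lower under vehicle and 5 under estradiol, and medians of -0.54 and -0.57. UPF2, a core factor of nonsense-mediated decay, had 9.20, 8.78 and 8.85 in receptor vehicle and 9.54, 9.55 and 9.39 in control vehicle arrays. With estradiol it had 9.19, 8.98 and 8.84 in receptor cells and 9.40, 9.24 and 9.40 in control cells. The groups did not overlap, and the differences were -0.55 ± 0.13 and -0.34 ± 0.13. GTPBP4, a GTPase of ribosome assembly, had 10.22, 10.17 and 10.25 against 10.65, 10.73 and 10.57 under vehicle, 1.35-fold lower in receptor cells. RBM17, a splicing factor, had 7.87, 7.74 and 7.83 in receptor vehicle against 8.57, 8.64 and 8.66 in control vehicle arrays, a difference of -0.81 ± 0.09. CDC123 had 8.90, 9.10 and 9.40 against 9.68, 9.72 and 9.68 under vehicle and was 1.47-fold lower in receptor cells. PRPF18, a splicing factor of the second catalytic step, was not called, and its arrays overlapped, at 5.37, 4.97 and 5.03 in receptor vehicle and 5.28, 5.40 and 5.83 in control vehicle arrays.

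In DNA repair and nucleotide metabolism 4 of 5 members were measured, and 2 were called lower under each treatment, with medians of -0.72 and -0.69. FBXO18, the FBH1 helicase that acts at stalled replication forks, had 8.37, 8.50 and 8.84 in receptor vehicle and 9.57, 9.58 and 9.36 in control vehicle arrays. Under estradiol it had 8.60, 8.68 and 8.94 in receptor cells and 9.51, 9.54 and 9.42 in control cells. All receptor arrays were lower, by -0.94 ± 0.14 and -0.75 ± 0.14. NUDT5 had 9.74, 9.72 and 9.91 against 10.24, 10.17 and 10.45 under vehicle and 9.55, 9.75 and 9.77 against 10.25, 10.34 and 10.33 under estradiol, 1.41-fold and 1.53-fold lower in receptor cells. DCLRE1C, which encodes the end-processing nuclease Artemis, went with neither group: it had 6.00, 5.83 and 5.79 in receptor vehicle against 5.82, 5.84 and 5.61 in control vehicle arrays, and 5.95, 6.08 and 5.38 against 6.10, 6.12 and 5.99 under estradiol.

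PRTFDC1, a relative of the purine salvage enzyme HPRT and the last member of the block, had the lowest mean difference, and that mean does not describe its cultures. Its levels were 7.38, 4.63 and 4.79 in receptor vehicle and 6.90, 6.90 and 7.24 in control vehicle arrays. Under estradiol they were 7.45, 4.85 and 4.89 in receptor cells and 7.05, 6.84 and 7.09 in control cells. Receptor culture 1 stood above the control arrays under both treatments, while cultures 2 and 3 were not detected above background on any of their 4 arrays. The mean difference under vehicle was -1.41 ± 0.71 and was not called.

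Vesicle traffic and small GTPase genes, 8 of 8 measured, had 4 called lower under vehicle and 3 under estradiol, and medians of -0.45 and -0.48. NET1, an exchange factor that activates RhoA, had 8.54, 8.52 and 8.47 in receptor vehicle and 9.10, 9.09 and 9.05 in control vehicle arrays. With estradiol it had 8.45, 8.19 and 8.22 in receptor cells and 8.90, 9.08 and 8.92 in control cells, so receptor arrays were lower in every case, 1.49-fold and 1.60-fold on average. STAM, an ESCRT-0 subunit that sorts ubiquitinated receptors on endosomes, had 7.52, 7.62 and 7.81 against 8.60, 8.39 and 8.43 under vehicle, a difference of -0.82 ± 0.12. Under estradiol STAM had 7.58, 7.39 and 7.64 in receptor cells and 8.19, 8.22 and 8.36 in control cells, a difference of -0.72 ± 0.12. RSU1, a Ras suppressor found at integrin adhesions, had 7.13, 7.05 and 6.73 in receptor vehicle and 7.58, 7.53 and 7.36 in control vehicle arrays, and 7.34, 6.87 and 6.90 against 7.50, 7.44 and 7.59 under estradiol. Its groups did not overlap, but its call under vehicle was lost in 13 of 25 alternative settings.

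OPTN, the autophagy receptor optineurin, had 8.23, 7.90 and 7.74 in receptor vehicle and 8.41, 8.34 and 8.24 in control vehicle arrays, with culture 1 just under the control arrays. Under estradiol it had 8.06, 7.86 and 7.62 against 8.47, 8.48 and 8.46, and the differences were -0.37 ± 0.14 and -0.62 ± 0.14. GDI2, which keeps Rab proteins soluble, overlapped under vehicle, with 9.88, 10.02 and 10.07 in receptor cells and 10.00, 10.15 and 10.39 in control cells. Under estradiol GDI2 did not overlap, at 10.04, 9.96 and 9.73 against 10.24, 10.31 and 10.39, and it was called under neither treatment. USP6NL, a GTPase-activating protein for Rab5, had 6.78, 6.56 and 6.24 against 7.05, 7.25 and 7.18 under vehicle, 1.55-fold lower in receptor cells.

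The 6 members of mitochondria, peroxisomes and metabolism were all measured, with 4 called lower under each treatment and medians of -0.91 and -0.78. ECHDC3, a mitochondrial protein of the enoyl-CoA hydratase family, had 4.54, 5.17 and 5.02 in receptor vehicle and 6.18, 6.19 and 6.12 in control vehicle arrays. Under estradiol it had 4.76, 4.97 and 5.36 in receptor cells and 6.25, 5.92 and 6.16 in control cells. It was 2.38-fold and 2.11-fold lower in receptor cells, and its probe was detected on 2 of 3 receptor arrays under each treatment, so background limits these folds. PTER, a phosphotriesterase-related hydrolase, had 5.01, 5.39 and 5.29 against 6.36, 6.32 and 6.12 under vehicle and 5.14, 4.81 and 5.44 against 5.91, 5.82 and 6.04 under estradiol. Its groups were apart by -1.04 ± 0.16 and -0.80 ± 0.16.

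PITRM1, the peptidase that clears presequences in mitochondria, had 8.36, 8.69 and 8.60 in receptor vehicle against 9.46, 9.49 and 9.43 in control vehicle arrays and was 1.88-fold lower. PHYH, which starts the breakdown of phytanic acid in peroxisomes, had 7.50, 7.80 and 7.73 against 8.55, 8.51 and 8.67 under vehicle and 7.64, 7.72 and 7.39 against 8.56, 8.69 and 8.92 under estradiol. Its difference under estradiol, -1.14 ± 0.13, was the second lowest of the members after that of PRTFDC1. DHTKD1, a mitochondrial dehydrogenase of lysine breakdown, and MSRB2, which repairs oxidised methionine, were the members of this group whose arrays overlapped.

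Of 6 genes of protein folding, ubiquitin and protein modification, all measured, 2 were called lower under each treatment, with medians of -0.32 and -0.28. ASB13, a substrate adaptor of a ubiquitin ligase, had 5.31, 5.02 and 5.24 in receptor vehicle and 5.91, 6.32 and 6.38 in control vehicle arrays, and 5.97, 4.94 and 5.33 against 6.34, 6.44 and 6.38 under estradiol. Its arrays were apart, by -1.01 ± 0.21 and -0.97 ± 0.21. HSPA14, an Hsp70-family chaperone at the ribosome, had 7.69, 7.89 and 8.28 against 8.52, 8.39 and 8.58 under vehicle and 7.62, 8.05 and 8.10 against 8.57, 8.26 and 8.47 under estradiol. It was lower on all receptor arrays without being called, at -0.55 ± 0.17 and -0.51 ± 0.17. COMMD3, a subunit of the Commander complex of endosomal recycling, had 10.35, 10.23 and 10.56 against 11.01, 11.05 and 11.07 under vehicle, 1.59-fold lower in receptor cells.

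NMT2, which attaches myristate to proteins, was the highest member: it had 9.67, 9.17 and 8.86 in receptor vehicle and 8.97, 8.92 and 8.87 in control vehicle arrays, and 10.23, 9.16 and 9.10 against 9.09, 8.99 and 9.21 under estradiol. Culture 1 stood highest under both treatments, the groups overlapped, and the mean differences of 0.31 ± 0.26 and 0.40 ± 0.26 were not called. The second NMT2 probe went the other way, with -0.24 under vehicle and -0.02 under estradiol, so the direction for this gene depends on the probe. OTUD1, a deubiquitinase, had 5.36, 5.22 and 5.51 against 5.28, 5.15 and 5.32 under vehicle and 5.46, 5.41 and 5.54 against 5.64, 5.35 and 5.21 under estradiol, with overlapping groups. DNAJC1, a J-domain protein of the endoplasmic reticulum, was near background, with levels of 4.74, 4.79 and 4.61 in receptor vehicle and 4.99, 4.97 and 4.49 in control vehicle arrays.

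Among genes of matrix, adhesion and cytoskeleton 5 of 6 were measured, with 2 called lower under each treatment and medians of -0.50 and -0.44. FRMD4A, a scaffold of epithelial polarity, had 8.58, 7.83 and 8.06 in receptor vehicle and 8.96, 8.76 and 8.96 in control vehicle arrays, and 8.38, 7.96 and 7.74 against 8.84, 8.74 and 8.80 under estradiol. Its receptor arrays were all lower, by -0.74 ± 0.19 and -0.77 ± 0.19. ITIH5, a hyaluronan-binding matrix protein, overlapped between groups, with 13.26, 13.09 and 12.92 against 12.92, 13.10 and 12.92 under vehicle. FAM171A1, a membrane protein, had 10.22, 10.09 and 9.89 against 10.68, 10.62 and 10.42 under vehicle, 1.42-fold lower in receptor cells.

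Of 5 signalling genes only PRKCQ, protein kinase C theta, was measured. Its receptor vehicle arrays had 4.75, 5.52 and 5.64 and its control vehicle arrays 5.40, 5.25 and 5.60, overlapping, and it was not called. CAMK1D, a calmodulin-dependent kinase, was detected on 2 of 12 arrays, with levels from 4.40 to 4.67 in receptor vehicle and 4.62 to 4.91 in control vehicle arrays. Of the other 4 genes, 3 were measured and 2 of them called lower under each treatment. WDR37, a WD-repeat protein, had 7.67, 7.77 and 7.47 in receptor vehicle and 8.70, 8.60 and 8.42 in control vehicle arrays, and 7.95, 7.63 and 7.65 against 8.75, 8.54 and 8.69 under estradiol. Its groups were well apart, with differences of -0.94 ± 0.13 and -0.91 ± 0.13. BEND7, a BEN-domain protein, was 1.85-fold lower in receptor vehicle cells on its main probe, at 7.26, 7.02 and 6.91 against 8.01, 7.88 and 7.97, while its second probe differed by 0.09.

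**Figure D2:**
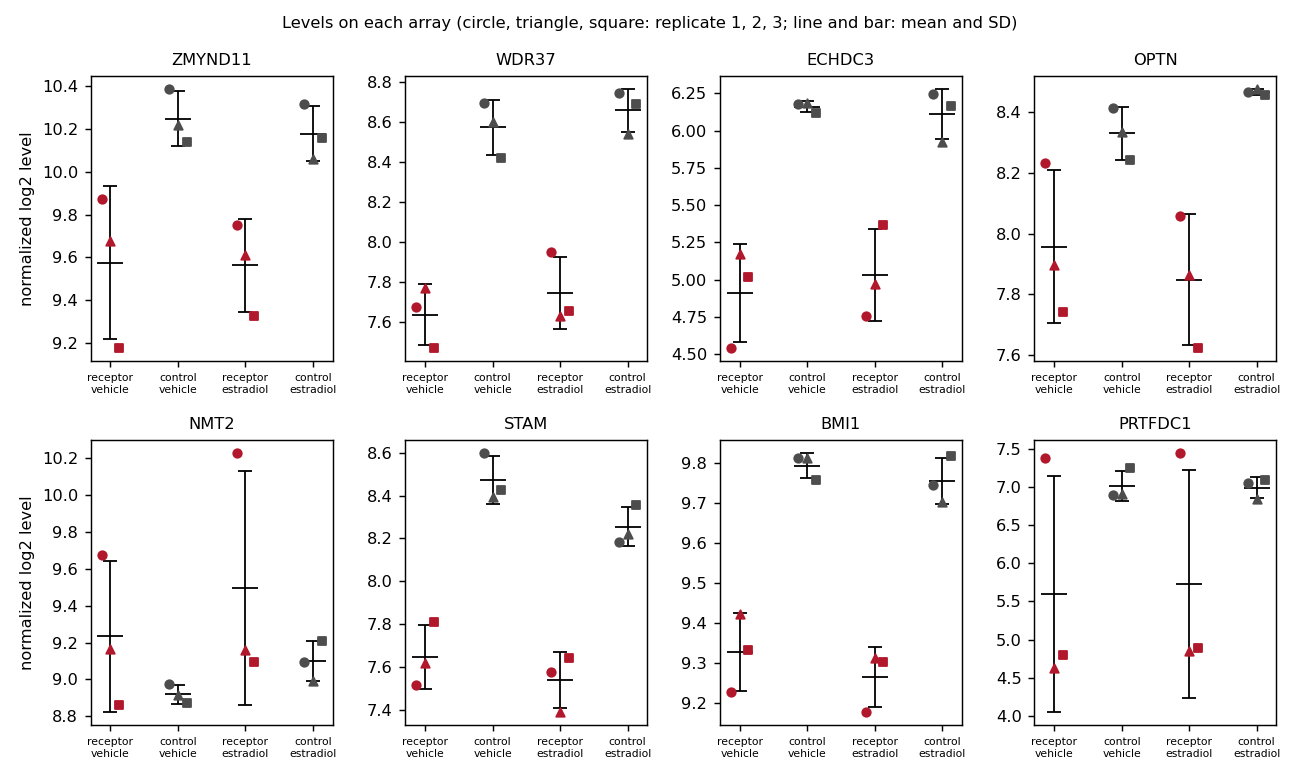
Normalized log2 levels of 8 members on each of the 12 arrays, by group (receptor vehicle, control vehicle, receptor estradiol, control estradiol), with circles, triangles and squares for replicates 1, 2 and 3 and a line and bar for the mean and SD of 3 arrays; each panel has its own axis, which does not start at 0. ZMYND11, WDR37, ECHDC3, OPTN, STAM and BMI1 lie lower on all receptor arrays, NMT2 is raised in receptor replicate 1, and PRTFDC1 has replicate 1 above the control arrays and replicates 2 and 3 far below them.

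The same differences that chose the members were split by probe brightness and by place along the block, as a description. Among probes of different brightness, the 16 dimmest members had a median difference of -0.36 under vehicle with 3 called lower, the middle 16 had -0.64 with 11, and the brightest 17 had -0.50 with 11. Differences of probes near background are compressed on this scale, and its part in these values was not tested. Along the block, the 16 members nearest the chromosome end, from ZMYND11 to USP6NL, had a median of -0.51 under vehicle, the next 16, from ECHDC3 to RPP38, had -0.54, and the last 17, from NMT2 to PRTFDC1, had -0.50. Another 19 probes of 15 members passed the detection filter, and 18 of them were lower in receptor cells under each treatment, with medians of -0.42 under vehicle and -0.31 under estradiol. These probes were read from the same arrays and RNA.

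The 49 members were not the only genes of their region, and the other 28 tested genes between ZMYND11 and PRTFDC1 were mixed. Their median difference was -0.15 under vehicle, and 7 were called lower and 1 higher. FAM107B had -1.18, and PFKFB3, which makes an activator of glycolysis, had -0.80 under vehicle but -0.11 under estradiol, where it was not called. ACBD7, an acyl-CoA-binding protein, had 0.79 under vehicle and 0.73 under estradiol, where it was not called. The intermediate filament gene VIM had -0.02 under vehicle. With all 77 tested genes from the first to the last member, the median was -0.45 under vehicle and -0.41 under estradiol.

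PRTFDC1 did not mark an edge. The next genes outside were THNSL1 at -0.59, ENKUR at -0.27 and APBB1IP at -0.12, and just inside were ARHGAP21 at -0.29, KIAA1217 at -0.61 and OTUD1 at 0.11. The 25 tested genes that follow PRTFDC1 towards the centromere had a median of -0.39 under vehicle and -0.45 under estradiol, with 8 (32.0%) called lower and 0 higher under each. The cultures had -0.27, -0.36 and -0.39 over these genes under vehicle. They include ITGB1, the integrin beta-1 subunit, at -0.54, and KIF5B, the heavy chain of the motor protein kinesin, at -0.66. The last 9 tested genes of 10p had a median of -0.07 under vehicle and -0.02 under estradiol, but 3 of them (33.3%) were called lower under each treatment. Under vehicle these were FZD8, a Wnt receptor, at -1.61, the ubiquitin ligase scaffold CUL2 at -0.56 and the cyclin gene CCNY at -0.51, and 1 other gene was called higher. No tested gene lay before ZMYND11. On the long arm the 368 tested genes of chromosome 10 had a median of 0.00, with 4.08% called lower, and genes of the other chromosomes had -0.03, with 5.32% called lower.

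**Figure D3:**
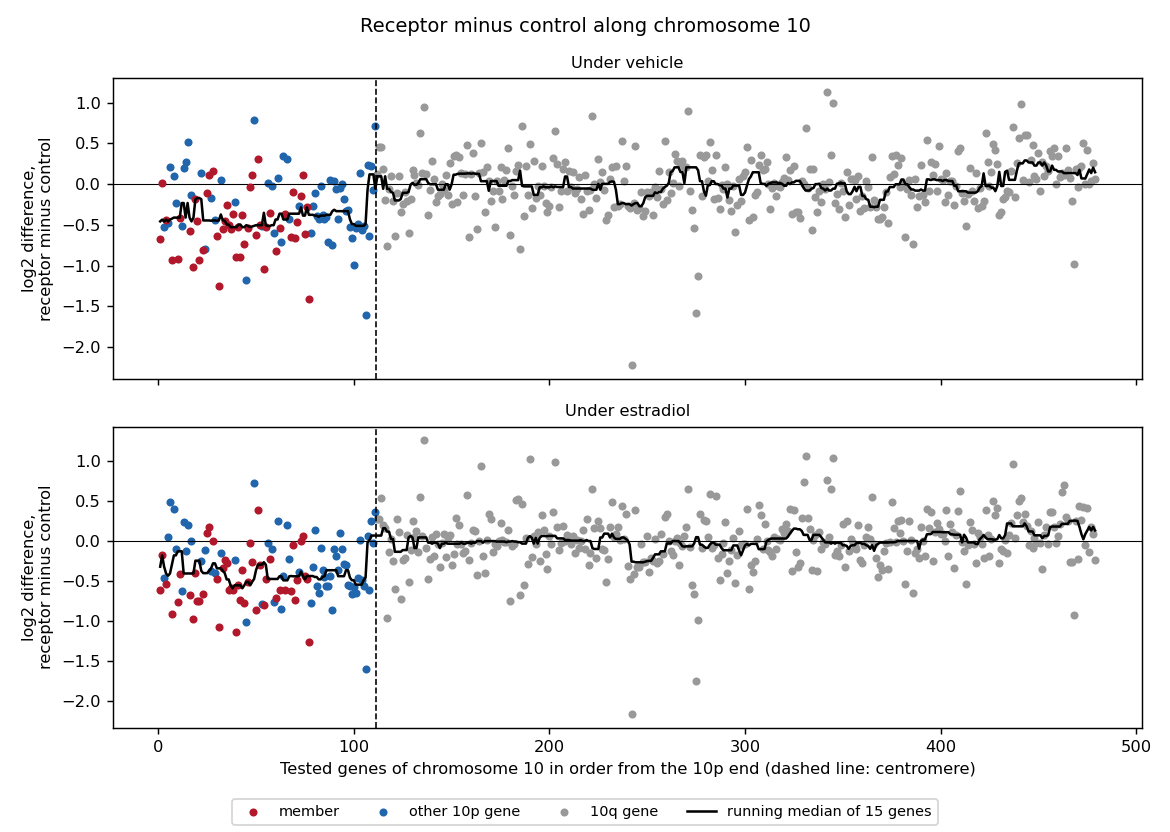
Receptor minus control log2 difference of each tested gene of chromosome 10, in gene order from the 10p end, under vehicle (top) and estradiol (bottom), with members in red, other 10p genes in blue, 10q genes in grey and the running median of 15 genes as a line. The line lies below 0 over most of 10p, past the last member, and returns to about 0 near the centromere (dashed).

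Set against whole chromosome arms, 10p had a median difference of -0.43 under vehicle and -0.44 under estradiol over 111 tested genes, of which 43 (38.7%) were called lower under vehicle. It was the lowest of 39 arms with at least 20 tested genes in both comparisons, but the 111 genes include the 49 members, which were chosen for being lower. The other 62 genes of 10p had a median of -0.27 under vehicle and -0.31 under estradiol, with 18 (29.0%) and 17 (27.4%) called lower. The next lowest was 4p at -0.24 under vehicle and -0.23 under estradiol, and the highest was 14q at 0.08 and 0.09. Culture by culture the order was less clear. On 10p the vehicle medians were -0.31, -0.39 and -0.40 in receptor cultures 1, 2 and 3, so all 3 were low, whereas on 4p they were 0.04, -0.34 and -0.32. In culture 1 the arms 19p, at -0.35, and 19q, at -0.34, lay below 10p. Without the members, the 10p medians were -0.22, -0.25 and -0.25. The culture values share the same control arrays.

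**Figure D4:**
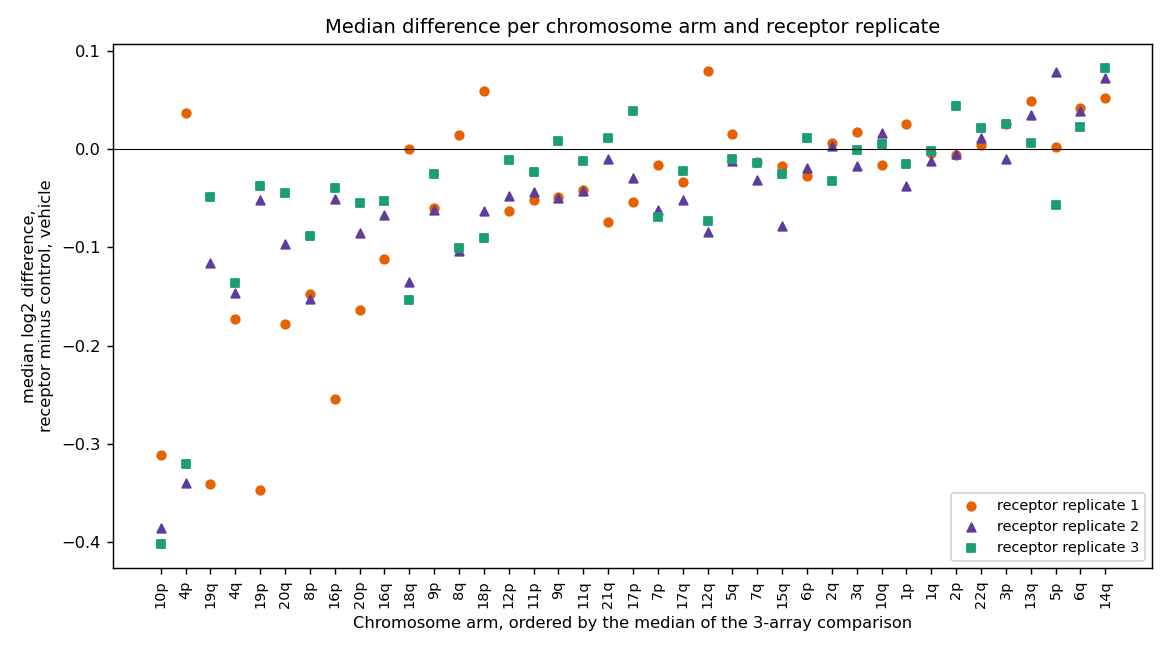
Median log2 difference, receptor minus the mean of 3 control arrays under vehicle, over the tested genes of each of 39 chromosome arms, with circles, triangles and squares for receptor replicates 1, 2 and 3; arms are ordered by the median of the 3-array comparison. The arm 10p, members included, is at the left with all replicates at or below -0.31, and 4p next to it has replicate 1 at 0.04.

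The hormone was tested as a contrast that the choice of members did not use. Its arrays are among those of the earlier look from which the members were chosen, so the test is not independent of that choice. This also holds for control cells and for the difference between the responses. Estradiol changed 0 of the 49 members in receptor cells (limma, adjusted p under 0.05), where 11 of 15249 genes (0.0721%), all higher, were called. With the replicate number as a block within each line, which the correlated receptor arrays call for, 35 genes (0.230%) were called and again 0 members. In that fit 2 members had an unadjusted p under 0.05, against 8.03% of all genes. They were NET1, with an estradiol minus vehicle difference of -0.09, -0.32 and -0.25 in cultures 1, 2 and 3, and ARHGAP21, with -0.18, -0.26 and -0.14 (limma with the block, adjusted p = 0.561 and 0.588). In all 5 members (10.2%) were lower with estradiol in 3 of 3 cultures and 3 (6.12%) higher, against 14.6% and 13.2% of all genes. Without the block 0 members had an unadjusted p under 0.05, against 3.46% of all genes. The member responses ran from -0.27 for NSUN6, an RNA cytosine methyltransferase, to 0.26 for NMT2, with a median of -0.03. With the block, BMI1 had -0.06, with a 95% interval from -0.25 to 0.12, KLF6 had -0.01, from -0.22 to 0.19, and WDR37 0.11, from -0.14 to 0.35. NET1 had -0.22, from -0.42 to -0.02, and ARHGAP21 -0.19, from -0.38 to -0.01. Intervals of this width do not exclude moderate responses of single genes.

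In control cells estradiol changed 0 members and 0 of all genes (0%), with 1 member, PTER, at an unadjusted p under 0.05 against 2.30% of all genes. With the block within each line, 0 members and 0 genes were called. In that fit 2 members, DCLRE1C and PTER, had an unadjusted p under 0.05, against 5.97% of all genes. The responses ran from -0.35 for PTER to 0.31 for DCLRE1C. The difference between the responses of receptor and control cells was called for 0 members and for 5 genes in all (0.0328%), with 0 members and 2.87% of all genes at an unadjusted p under 0.05. With the block within each line it was called for 0 members and 9 genes (0.0590%). In that fit 0 members and 7.47% of all genes had an unadjusted p under 0.05. The difference ran from -0.38 for DCLRE1C to 0.24 for PTER, and UPF2, RSU1, OPTN and the other members called under a single treatment were not among its calls.

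The receptor cultures did not show the members equally. Relative to the mean of the control arrays, the members' median was -0.36, -0.56 and -0.59 in receptor cultures 1, 2 and 3 under vehicle and -0.43, -0.56 and -0.59 under estradiol. Each control array minus the mean of the other control arrays gave medians between -0.05 and 0.04. Under vehicle, 39, 38 and 38 of the 49 members lay below every control array in cultures 1, 2 and 3, against 38.8%, 37.7% and 35.4% of all genes. Across the 49 members the vehicle and estradiol differences of a culture correlated at 0.86, 0.90 and 0.82, and at 0.84, 0.79 and 0.68 across all genes. Those pairs come from separate arrays of the same receptor number, and members are not independent points. The median SD of a member between arrays was 0.196 in receptor vehicle, 0.104 in control vehicle, 0.188 in receptor estradiol and 0.0941 in control estradiol arrays, so the spread between receptor cultures was wider than that between control cultures. Over all genes it was 0.195, 0.117, 0.197 and 0.111 in the same order, so the wider spread was not particular to the members.

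Culture 1 was compared with the mean of cultures 2 and 3 in a fit with a mean per receptor culture and an estradiol term. This division was chosen with the arrays' values known, and its test measures the spread between arrays of the same number, not between further cultures. Of the 49 members 17 (34.7%) were called, 5 lower and 12 higher in culture 1, while 24.6% of all genes were called, 12.4% lower and 12.2% higher. PRTFDC1 was at least 5.87-fold higher in culture 1, where it was detected on 2 of 2 arrays, against 0 of 4 in cultures 2 and 3 (adjusted p = 2.66e-07). NMT2 was higher by 0.88 ± 0.11 (adjusted p = 0.000412) and FRMD4A by 0.58 ± 0.11 (adjusted p = 0.00317). PRKCQ was lower in culture 1, at -0.66 ± 0.15 (adjusted p = 0.00753), and OPTN was higher by 0.36 ± 0.08 (adjusted p = 0.00996). KIAA1217, whose mouse counterpart acts in the development of intervertebral discs, was at least 1.14-fold higher in culture 1 (adjusted p = 0.0151), since it too was detected on 0 of 4 arrays of cultures 2 and 3. The members' median difference of 0.05 was close to that of all genes, -0.01. With array weights 2 members were called, without receptor vehicle replicate 1 there were 3, and without receptor estradiol replicate 1 there were 5.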

How the data were processed

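RNA of 12 EA.hy926 cultures, in 4 groups of 3 set by the labels, was measured on Illumina BeadChips. The deposited non-normalized file gave an intensity for each probe on each array and, beside it, the detection p-value that the authors deposited. A second deposited table held intensity normalized by the authors, with lumi per the submitters' processing notes (version not given in the sources used here). Its sorted values agreed between arrays to within a relative difference of 0.00151, and it served as an alternative. Chip identity was not given in the headers. Of 47322 probes, 1 without values on some arrays was left out.

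From these, neqc (limma 3.58.1, R 4.3.3) subtracted background estimated through the detection p-values, added an offset of 16, took quantile normalization across arrays and gave log2 levels. Probes with a detection p under 0.05 on at least 3 arrays were kept (21476), and the brightest probe stood for each gene. Symbols and gene order came from a RefSeq table (GRCh38.p14), which changed 1 member symbol, FBXO18 to FBH1. With limma, group means were fitted over the 12 arrays for all 15249 genes (8 residual and 4.62 prior degrees of freedom), with two-sided moderated tests adjusted by the Benjamini-Hochberg method over all genes. A further fit had a mean per receptor culture and an estradiol term. The scripts were tested on simulated data. Figures were drawn with matplotlib 3.10.9.

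The members, role groups, neighbouring sets, markers and tests were chosen with earlier results of these data known. A leukocyte marker of the planned list is not reported here. Named with values were the first and last member, the 6 lowest and 4 highest in receptor over control under vehicle, 16 fixed members, up to 6 members called in another contrast, and examples per role group in chromosome order. Where values of other genes are named (neighbours of the block, ITGB1, KIF5B, FZD8, CUL2, CCNY, ARHGAP21, FAM107B, PFKFB3, ACBD7, VIM, PITRM1, PHYH, RBM17, CDC123, USP6NL, BEND7 and COMMD3), they were chosen after their values were seen.

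Deviations from group means were correlated between arrays of the same replicate number, across genes. Vehicle and estradiol arrays correlated at 0.76, 0.39 and 0.67 in receptor cells, at 0.08, 0.03 and 0.11 in control cells, and numbers shared between the lines at -0.05 to 0.04. The receptor numbers were therefore taken to pair vehicle with estradiol arrays, as a feature of the data and not of the labels. Nothing says that the arrays of a group came from separate clones, so p-values measure the spread between these arrays. Arrays give no counts, and their number limits the precision.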

Additional observations from a re-analysis of the deposited data

Results flagged for a closer look

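The receptor cultures differed from each other at 17 members by the test of culture 1 against the mean of cultures 2 and 3 (limma, adjusted over all genes), and the 6 with the smallest p are given here. PRTFDC1 was at least 5.87-fold higher in culture 1, on 2 of 2 arrays. Receptor culture 1 had 7.38 under vehicle and 7.45 under estradiol, and cultures 2 and 3 had 4.63 and 4.79 under vehicle and 4.85 and 4.89 under estradiol, where the probe was not detected. Control arrays had 6.84 to 7.24. NMT2 was higher by 0.88 (0.63 to 1.13), FRMD4A by 0.58 (0.34 to 0.82), and OPTN by 0.36 (0.18 to 0.55) on the log2 scale, with 95% intervals. KIAA1217 was at least 1.14-fold higher, against arrays on which it was not detected. PRKCQ went the other way, at -0.66 (-0.98 to -0.34). The share of members called in this contrast, 34.7%, stood beside 24.6% of all genes. The division into culture 1 and cultures 2 and 3 was chosen with the values known. The intervals do not measure the spread between further cultures. FRMD4A, PRKCQ, OPTN and KIAA1217 lost their call with array weights and also without receptor vehicle replicate 1. No cause was tested.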

How the results depend on the processing

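Of the named members called for receptor over control or for culture 1, 0 changed direction under the alternatives run. Uncalled members near no difference did in some: SUV39H2, TAF3, DCLRE1C, DNAJC1 and OTUD1. Counts of calls were less stable. Under vehicle, 25 members were called, and between 15 and 30 when an array, or both receptor arrays of a number, was left out (15 without receptor vehicle replicate 2 or control vehicle replicate 2, 16 without control vehicle replicate 1 or receptor number 2). Under estradiol, 23 were called, and 17 to 31 on leaving out. Scaling each array to its median in place of quantiles left 8 calls under vehicle and 10 under estradiol. The cause was not tested. Array weights gave 32 and 31. The median of the members, -0.52 and -0.54, was -0.39 and -0.38 on the authors' table and -0.38 under both treatments without background correction. Leaving out gave -0.54 to -0.48 and -0.56 to -0.51. Of the calls of named members under vehicle, those of RSU1, ZMYND11 and UPF2 were lost in 13, 9 and 8 of 25 alternatives and those of ASB13 and BMI1 in 4 each. Under estradiol the calls of ZMYND11, ASB13 and OPTN were lost in 12, 7 and 6.

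For culture 1 against cultures 2 and 3, 17 members were called, 3 to 20 on leaving out an array or number (20 without receptor number 2, 8 without number 3), 2 with array weights and 29 with median scaling, of which 2 were lower and 27 higher. Median scaling moved the median of all genes in that contrast to 0.27, and the members lay 0.09 above it. Its calls over all genes then split into 421 lower and 6361 higher (6.21% lower, against 50.3% with quantiles). FRMD4A, PRKCQ, OPTN and KIAA1217 lost their call with array weights (adjusted p = 0.0903, 0.175, 0.17 and 0.287) and without receptor vehicle replicate 1 (0.0671, 0.162, 0.142 and 0.2). Over all genes the calls ran from 445 to 3020 for receptor over control under vehicle (1302 as reported), 464 to 2287 under estradiol (1159), 1 to 35 for estradiol in receptor cells (11), 0 to 9 for the difference between responses (5) and 724 to 6782 for the cultures (3756). Median scaling turned the vehicle calls to 47% lower, against 56.1%.

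With the replicate number as a block over all 12 arrays, a pairing the data do not bear out across lines, 27 members were called under vehicle and 28 under estradiol, with medians of -0.52 and -0.54. With the block over all arrays or within each line, 0 members were called for estradiol in receptor cells, in control cells or for the difference. Those 3 counts were 0 in all 26, 26 and 25 alternatives. A block for the BeadChip was not run, since the headers name none.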
